A study of Mus musculus with 5 samples.

Results

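The genes described here encode the hemidesmosome and the fibrils that anchor it, the junction that holds the basal keratinocytes of the epidermis to the dermis. They are 9 of the 27179 genes in the deposited table of read counts, chosen by symbol: Dst, Plec, Itga6, Itgb4, Col17a1, Cd151, Lama3, Lamb3 and Col7a1. Each symbol matched 1 Entrez identifier, and all 9 passed the low-count filter, which left 17472 tested genes. RNA was sequenced from ear skin of C57BL/6 (B6) mice with the genotype Cd1d -/- (KO, 2 libraries) and of control mice (3 libraries). The protein CD1d displays lipid antigens, which natural killer T cells recognise, and the study asked what its loss does to skin gene expression. The titles give the controls as Cd1d +/-, while their genotype tag reads WT, so a control may carry 1 intact copy or 2. No treatment is named, both groups share the B6 strain of the series title. The labels do not give age, how the allele was made, or whether each library came from its own mouse. The p-values thus cover only the variation among 5 libraries, part of which may be technical.

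In a hemidesmosome, the plakins dystonin (Dst) and plectin (Plec) hook keratin filaments to the cytoplasmic tail of integrin α6β4, the product of Itga6 and Itgb4, and to collagen XVII, the product of Col17a1. The tetraspanin CD151 (Cd151) binds laminin-receptor integrins in the membrane. Outside the cell, the integrin binds a laminin trimer that holds the products of Lama3 and Lamb3, and collagen VII (Col7a1) forms the anchoring fibrils that tie this laminin to the dermis. In humans, inherited loss of any of several of these proteins causes epidermolysis bullosa, in which the skin blisters.

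Libraries held 32353957 to 79160005 counts, and levels are given as CPM, reads scaled by library size and TMM factors, where a single count stands for 0.0119 to 0.0303 CPM. Cd1d1 had 61 and 48 counts in the KO libraries, against 557, 757 and 182 in the controls, in the direction of the labels. The tissue label was met by the basal keratins: Krt5 averaged 7073 CPM in KO skin and 6389 CPM in control skin. KO replicate 1 stood apart in genes of the growing hair. The summed level of 6 inner root sheath and hair shaft genes was 509 CPM in KO replicate 1 and 14.1 CPM in KO replicate 2, against 11.2 to 18.9 CPM in the controls. The calls of the 9 genes are therefore also given without that library.

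Dst, Lama3 and Itga6 were lower in KO skin, and the remaining 6 genes did not pass the test. None of the 3 passed without KO replicate 1, without KO replicate 2, without control replicate 1 or with offsets for the length of the longest transcript. A gene was called at an adjusted p under 0.05 (edgeR quasi-likelihood test, Benjamini-Hochberg over all tested genes). By that rule 3 of the 9 fell and 0 rose, where 1.05% of all tested genes fell and 2.71% rose (3.76% in all). Longer genes fell more often. By longest transcript, 89 of 4913 genes of 4000 to 8000 bases fell, the length range of Itga6. So did 64 of 831 genes of 8000 to 16000 bases (Lama3) and 7 of 38 of at least 16000 bases (Dst). The median log2 fold change of the 9 genes was -0.32, against -0.02 over all tested genes, and 8 of the 9 values were negative. Both KO libraries lay below all 3 controls for 6 of the 9 genes and above them for 1, as they did for 20.0% and 19.9% of all tested genes. Transcripts of the opposite strand share exon bases with Dst (1037 and 456 bases), Lama3 (197), Itgb4 (537) and Cd151 (193), and Parp10 shares 205 bases with Plec on its own strand. Whether reads were counted by strand is unknown, and the values of these genes are uncertain to that extent. In whole skin, fewer basal cells and less RNA per basal cell cannot be told apart.

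**Figure D1:**
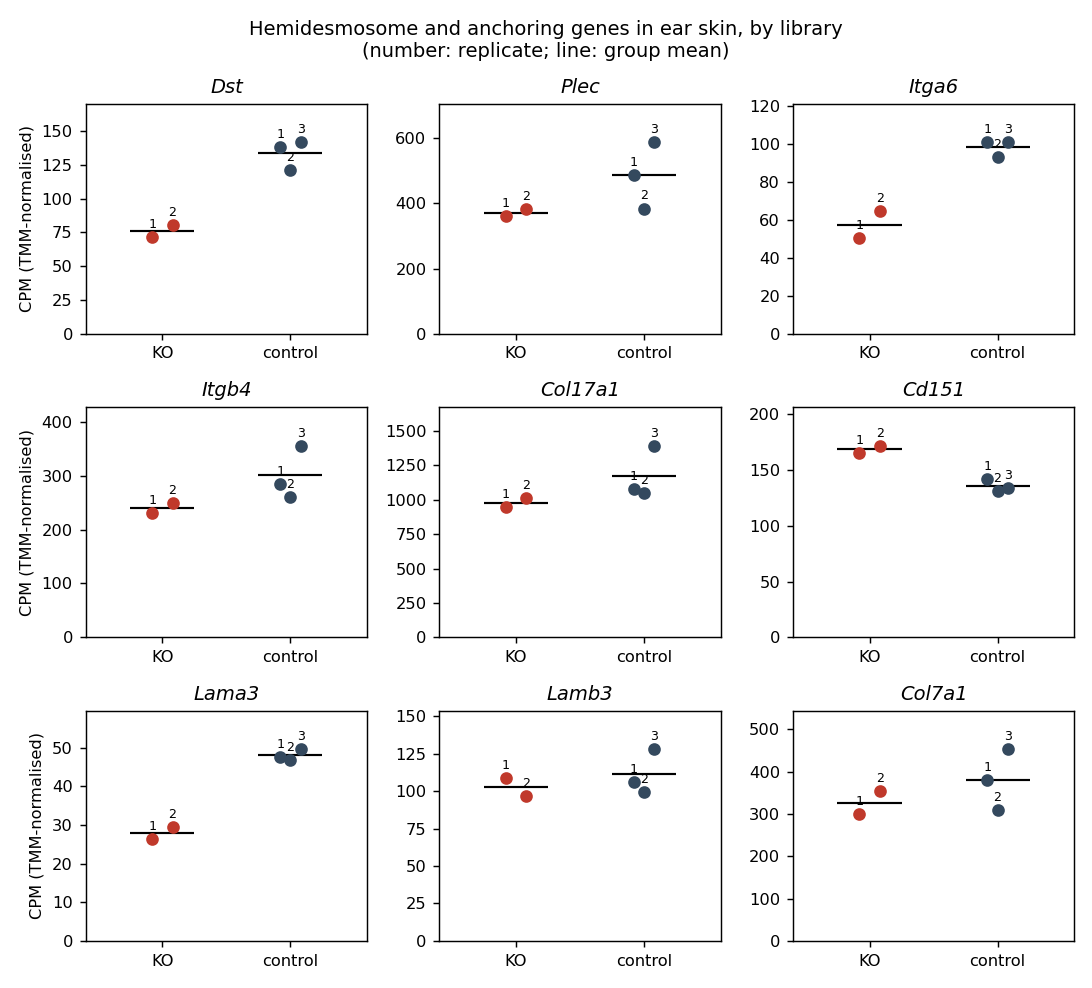
Level of each gene (CPM, y axis from 0) in the KO and control libraries; points are single libraries with their replicate number and lines are group means. The KO points of Dst, Itga6 and Lama3 sit well below all controls, Cd151 sits above them, and the KO and control points of Lamb3 and Col7a1 overlap.

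Among the plakins, Dst (Entrez 13518, GRCm38 chromosome 1, 33907888 to 34308662) had 71.8 and 80.2 CPM in KO skin, against 138, 121 and 142 CPM in control skin. The groups were well apart, with a log2 fold change of -0.82 (SE 0.13, edgeR adjusted p = 0.0186), so that its fitted level fell by 43.2%. Plec (Entrez 18810, chromosome 15, 76170974 to 76231378) had 362 and 381 CPM in KO skin, against 487, 384 and 588 CPM in control skin. Plectin binds the β4 tail directly. Its KO libraries lay below the controls, but only just below control replicate 2, and its log2 fold change of -0.39 (SE 0.17) did not pass (edgeR adjusted p = 0.205). Its 95% interval ran from -0.76 to -0.02 and overlapped that of Dst, from -1.10 to -0.53.

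Dst is a gene of several start sites and many transcripts. GENCODE lists 20, from 776 to 23279 bases, without naming tissues. Dystonin is known to have forms of neurons, muscle and epithelium, and gene totals do not show which transcripts gave the counts. The RefSeq start windows (GRCm38.p6; 250 bases before to 50 after a start) covered 5 of the 9 genes with 8 windows, and none was listed for Plec, Itga6, Itgb4 or Lama3. Below are both windows of Dst, which had the lowest fold change, with the upstream one of the 2 windows of Cd151, the one gene with a positive value, and that of Col17a1, the gene with the highest level. Capitals mark exact matches, on either strand, to GGGCGG (the GC box) and TATAAA, which do not overlap each other here.
Dst, upstream start, chr1:34011345-34011644, plus strand: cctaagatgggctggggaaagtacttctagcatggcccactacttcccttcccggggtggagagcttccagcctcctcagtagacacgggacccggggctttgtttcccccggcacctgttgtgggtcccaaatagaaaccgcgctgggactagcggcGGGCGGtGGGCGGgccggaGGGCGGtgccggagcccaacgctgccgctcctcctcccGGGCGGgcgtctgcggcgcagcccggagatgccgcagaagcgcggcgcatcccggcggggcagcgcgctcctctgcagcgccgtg
Dst, downstream start, chr1:34160010-34160309, plus strand: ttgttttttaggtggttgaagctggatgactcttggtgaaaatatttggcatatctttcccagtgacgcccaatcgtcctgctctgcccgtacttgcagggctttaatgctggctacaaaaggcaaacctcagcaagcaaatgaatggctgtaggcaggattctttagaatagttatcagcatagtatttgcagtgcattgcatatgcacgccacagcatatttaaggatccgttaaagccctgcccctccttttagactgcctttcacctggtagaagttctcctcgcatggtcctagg
Cd151, upstream start, chr7:141467112-141467411, plus strand: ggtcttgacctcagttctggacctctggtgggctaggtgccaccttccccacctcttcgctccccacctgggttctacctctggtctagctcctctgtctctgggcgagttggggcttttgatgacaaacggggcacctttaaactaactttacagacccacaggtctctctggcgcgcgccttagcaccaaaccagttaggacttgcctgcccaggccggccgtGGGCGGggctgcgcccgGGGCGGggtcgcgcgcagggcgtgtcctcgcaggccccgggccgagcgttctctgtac
Col17a1, chr19:47691993-47692292, minus strand: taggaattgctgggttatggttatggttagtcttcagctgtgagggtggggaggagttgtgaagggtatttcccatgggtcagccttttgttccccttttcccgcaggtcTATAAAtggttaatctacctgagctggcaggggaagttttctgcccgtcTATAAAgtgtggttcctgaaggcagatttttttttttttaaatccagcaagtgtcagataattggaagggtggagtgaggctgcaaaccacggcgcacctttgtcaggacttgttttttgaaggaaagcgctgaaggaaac
The upstream Dst window had 4 GC boxes and a GC content of 70.3%, while the downstream window had 0 and 46.0%, against a median of 52.7% over all 32851 windows. The downstream start lay within 100 bases of the start of 3 GENCODE transcripts, the longest of 16340 bases. The upstream start, itself inside the gene span given above, had 0 GENCODE starts within that distance. GGGCGG was found in 35.7% of all windows, with 2 matches in the upstream window of Cd151, 0 in its other window and 1 in that of Col7a1. TATAAA was found in 13.6% of all windows and, among these genes, in the Col17a1 window alone, with 2 matches. TGANTCA, the core of AP-1 sites, was found in 7.81% of all windows and in 0 of the 8 windows of these genes.

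The α6 chain of the integrin is the product of Itga6 (Entrez 16403, chromosome 2, 71786886 to 71858427), which had 50.2 and 64.5 CPM in KO skin, against 101, 93.2 and 101 CPM in control skin. The groups did not overlap, and KO replicate 1 was the lower of the 2 KO libraries. The log2 fold change was -0.78 (SE 0.14, edgeR adjusted p = 0.0219). Itgb4 (Entrez 192897, chromosome 11, 115974725 to 116008412), whose long cytoplasmic tail carries the plakin contacts, had 230 and 250 CPM in KO skin, against 285, 261 and 356 CPM in control skin. Here the KO libraries were again the lowest, with control replicate 2 close above them. Its log2 fold change of -0.32 (SE 0.15, 95% interval -0.65 to 0.00) did not pass (edgeR adjusted p = 0.23). The α6 chain also pairs with β1 integrin, and Itgb1 had a log2 fold change of -0.28 (SE 0.14, edgeR adjusted p = 0.277).

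Collagen XVII and CD151 are the other membrane components. Col17a1 (Entrez 12821, chromosome 19, 47646341 to 47692042) had 945 and 1011 CPM in KO skin, against 1079, 1047 and 1393 CPM in control skin. Controls 1 and 2 were near the KO libraries, and only control replicate 3 stood far above them. The log2 fold change was -0.26 (SE 0.15, 95% interval -0.58 to 0.06, edgeR adjusted p = 0.32). Cd151 (Entrez 12476, chromosome 7, 141467362 to 141471481) had 165 and 172 CPM in KO skin, against 142, 131 and 134 CPM in control skin. It was the one gene of the 9 above all controls in both KO libraries. Its log2 fold change of 0.31 (SE 0.11, 95% interval 0.07 to 0.56) did not pass (edgeR adjusted p = 0.135).

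Of the laminin chains, Lama3 (Entrez 16774, chromosome 18, 12333417 to 12583013), the α chain that carries the integrin-binding end, had 26.3 and 29.5 CPM in KO skin, against 47.7, 46.9 and 49.6 CPM in control skin. The controls were tightly grouped, and both KO libraries lay far below them. The log2 fold change was -0.78 (SE 0.12, edgeR adjusted p = 0.0186). Lamb3 (Entrez 16780, chromosome 1, 193294353 to 193343878), the β chain, had 109 and 96.9 CPM in KO skin, against 106, 99.4 and 128 CPM in control skin. The groups overlapped, and the log2 fold change was -0.10 (SE 0.14, 95% interval -0.41 to 0.20, edgeR adjusted p = 0.703). Col7a1 (Entrez 12836, chromosome 9, 108953586 to 108984875) had 299 and 355 CPM in KO skin, against 381, 309 and 453 CPM in control skin. The groups overlapped here too, with a log2 fold change of -0.22 (SE 0.16, 95% interval -0.58 to 0.14, edgeR adjusted p = 0.459).

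The genes mostly shared an order of libraries within each group. Control replicate 3 was the highest control for 8 of the 9 genes, Cd151 being the exception, and control replicate 2 was the lowest for 9 of 9. KO replicate 1 was below KO replicate 2 for 8 of 9, with Lamb3 the exception. The median deviation of the 9 genes from the control mean was -0.37 and -0.25 (log2) in KO replicates 1 and 2, against 0.02, -0.15 and 0.21 in control replicates 1, 2 and 3. Dst, Lama3 and Itga6 lay within 0.14 of their control means in every control, and so did Cd151. Plec spread more, with -0.32 in control replicate 2 and 0.29 in control replicate 3.

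Ratios of counts between 2 genes of the same library do not depend on how the libraries were scaled. They were not corrected for transcript length or GC content, with which fold changes moved across all genes, as given further below. The longest transcript has 10548 bases for Lama3 and 4867 for Lamb3, and 1865 for Cd151 and 4310 for Itga6. Itga6 has a GC content of 48.9% and Itgb4 60%. An exact permutation test over the 5 libraries has 10 splits and cannot go below 0.1, and over the 6 ratios compared the smallest Benjamini-Hochberg value was 0.24, so none of these differences passes a threshold. Per Lamb3 count there were 0.24 and 0.304 Lama3 counts in KO skin, against 0.45, 0.472 and 0.389 in control skin, a log2 difference of -0.69 (exact permutation p = 0.1, two-sided). The groups did not overlap.

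Per Itgb4 count there were 0.218 and 0.258 Itga6 counts in KO skin, against 0.354, 0.357 and 0.285 in control skin. The log2 difference was -0.48 (exact permutation p = 0.2), with control replicate 3 nearest to the KO libraries. Dst against Plec had a difference of -0.45 (exact permutation p = 0.2). Col17a1 and Itgb4 kept a close ratio in all 5 libraries, 4.11 and 4.04 in KO skin, against 3.79, 4.01 and 3.92 in control skin, a difference of 0.06 (exact permutation p = 0.2). Col7a1 against Lamb3 overlapped (-0.11, exact permutation p = 0.7). The widest gap was that of Cd151 to Itga6, with 3.29 and 2.67 Cd151 counts per Itga6 count in KO skin, against 1.42, 1.41 and 1.32 in control skin, a log2 difference of 1.10 (exact permutation p = 0.1). Without KO replicate 1 the differences were -0.52 for Lama3 to Lamb3, -0.36 for Itga6 to Itgb4, -0.40 for Dst to Plec, 0.05 for Col17a1 to Itgb4, 0.10 for Col7a1 to Lamb3 and 0.95 for Cd151 to Itga6. With a single KO library the exact permutation test cannot go below 0.25.

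**Figure D2:**
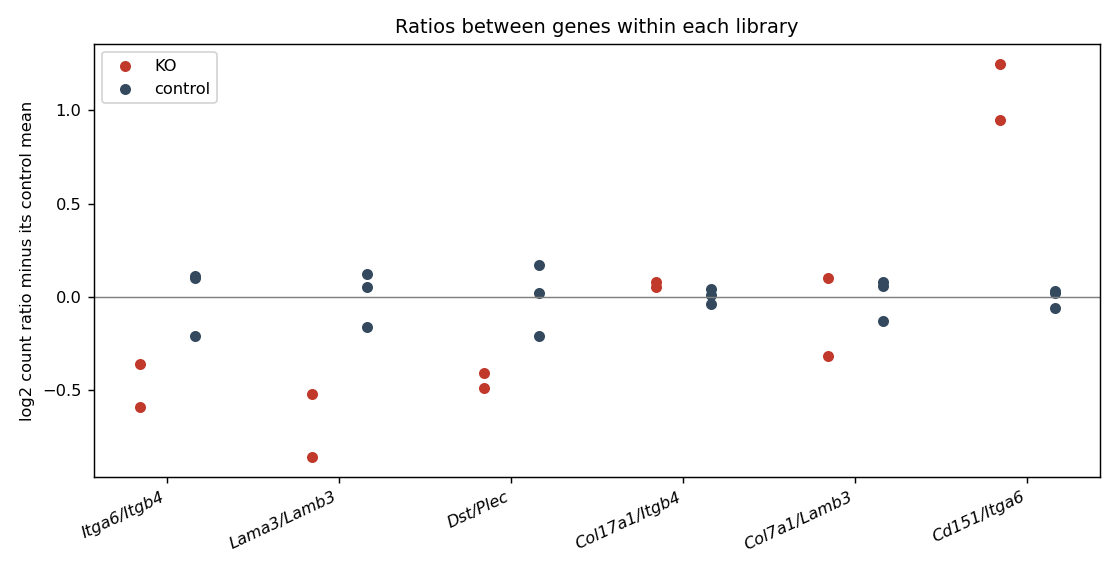
Log2 ratio of the counts of 2 genes in each library, minus the control mean of that ratio (y axis), for 6 ratios; each point is a library, KO to the left of control. Lama3 lies lower against Lamb3 and Cd151 lies above Itga6 in both KO libraries, while Col17a1 to Itgb4 differs by 0.06 on average.

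Per kilobase of the longest transcript, Col17a1 was the most abundant of the 9, with 175 ± 8.33 CPM per kb in KO skin (SD, n = 2) and 210 ± 34.2 CPM per kb in control skin (SD, n = 3). Cd151 came next, with 90.5 ± 2.65 in KO skin and 72.9 ± 3.1 in control skin on the same scale. Itgb4, Col7a1 and Plec followed, at 38.7, 35.3 and 24 CPM per kb in KO skin and 48.4, 41.2 and 31.5 CPM per kb in control skin, and each overlapped its neighbour among the controls. Lamb3 and Itga6 were level in control skin, where each averaged 22.8 CPM per kb. In KO skin they were apart, Itga6 at 11.7 and 15 CPM per kb and Lamb3 at 19.9 and 22.5. Dst and Lama3 were lowest, with 3.27 and 2.65 CPM per kb in KO skin and 5.75 and 4.56 CPM per kb in control skin. Per kilobase of all annotated exons Lamb3 and Itga6 were not level, with 15.6 and 6.36 CPM per kb in KO skin and 16.8 and 10.9 CPM per kb in control skin. On that scale, with 41.16 kb for Dst, Dst lay below Lama3, with 1.85 against 2.6 CPM per kb in KO skin and 3.25 against 4.47 CPM per kb in control skin.

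Fold changes in these libraries moved with transcript length and GC content across all genes, and most of the 9 genes are long. Spearman's rho of the log2 fold change with the longest transcript was -0.52 over 16772 genes and -0.63 over the 9. With GC content it was 0.32 over all genes and 0.49 over the 9. These are descriptions across genes, which share the same 5 libraries. The genes that fell were low in GC for this group, with 48.9% for Itga6, 49.5% for Dst and 51.7% for Lama3, while Plec, Itgb4 and Col7a1 had 60% or more (61.3%, 60% and 61.6%).

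Set against genes of their own length, most members lay within the middle of the range and the genes that fell lay below it. Those genes were called from the same fold changes, so their place there is no separate evidence. Of 4913 genes with transcripts of 4000 to 8000 bases, the median was -0.18 with quartiles of -0.34 and -0.02. Itgb4, Col17a1 and Lamb3 lay between those quartiles and Itga6, at -0.78, below them. For 831 genes of 8000 to 16000 bases the quartiles were -0.46 and -0.15, with Plec and Col7a1 between them and Lama3 below. For 38 genes of at least 16000 bases they were -0.5 and -0.18, with Dst below. Cd151, at 1865 bases, lay between the quartiles of 0.04 and 0.40 of the 2984 genes with 1000 to 2000 bases. Each gene was placed by its longest listed transcript. Lama3 has 2 listed, of 5551 and 10548 bases, and Dst has 20, from 776 to 23279 bases. Which of them gave the counts is unknown.

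**Figure D3:**
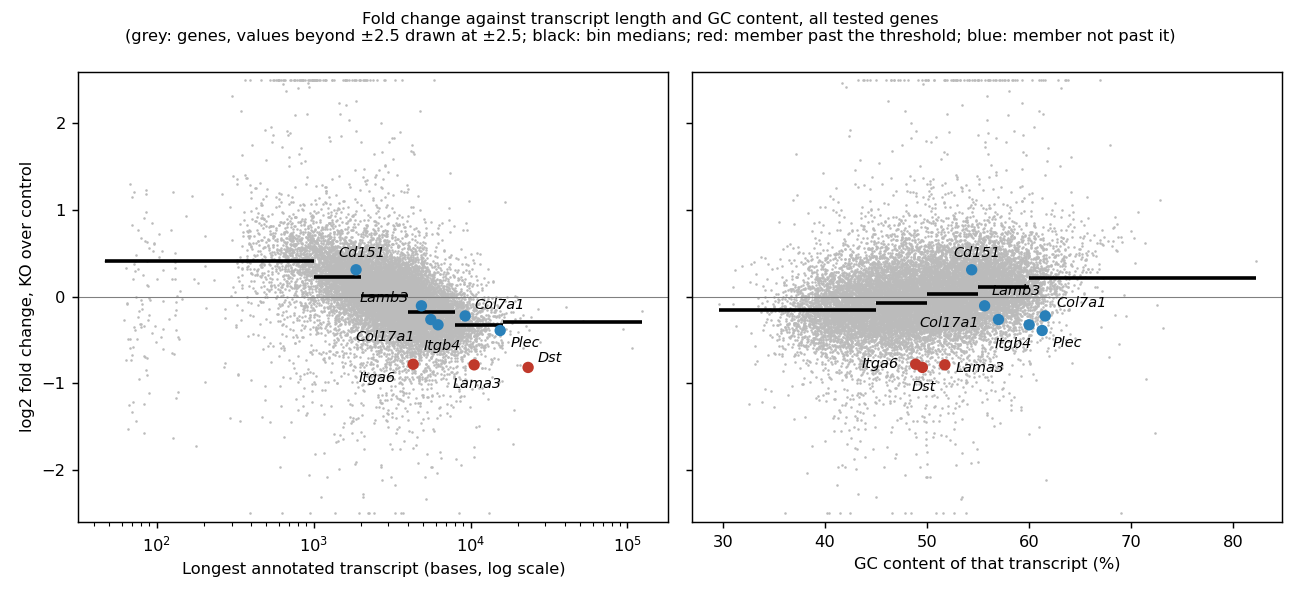
Log2 fold change of all tested genes with a known transcript (grey) against the longest transcript (left, log scale) and its GC content (right); black lines are bin medians, red points are members past the threshold and blue points are members not past it. Dst, Lama3 and Itga6 lie below the bin medians of their lengths, and Cd151 and Plec lie close to theirs.

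When each library's trend on length and GC content was removed by offsets, the same 3 genes passed, with smaller values. The log2 fold change was -0.66 for Itga6 (SE 0.11, edgeR adjusted p = 0.00943), -0.50 for Lama3 (SE 0.09, edgeR adjusted p = 0.011) and -0.46 for Dst (SE 0.09, edgeR adjusted p = 0.0214). In that fit 0.745% of 16772 genes fell and 2.90% rose. The values of the other genes came closer to 0, between -0.24 for Itgb4 and 0.13 for Cd151. With offsets on length alone none of the 9 passed, in a fit that called 20 genes in all (0.0298% of all genes lower, 2031 at an unadjusted p under 0.05). Itga6 kept -0.67 there (edgeR adjusted p = 0.112), Lama3 had -0.46 (edgeR adjusted p = 0.179) and Dst -0.44 (edgeR adjusted p = 0.254). With the median transcript length in place of the longest, Dst had -0.62 and Itga6 -0.72 and both passed (edgeR adjusted p = 0.0496 and 0.0416, with 0.525% of all genes lower), while Lama3, with -0.51, did not (edgeR adjusted p = 0.0704).

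**Figure D4:**
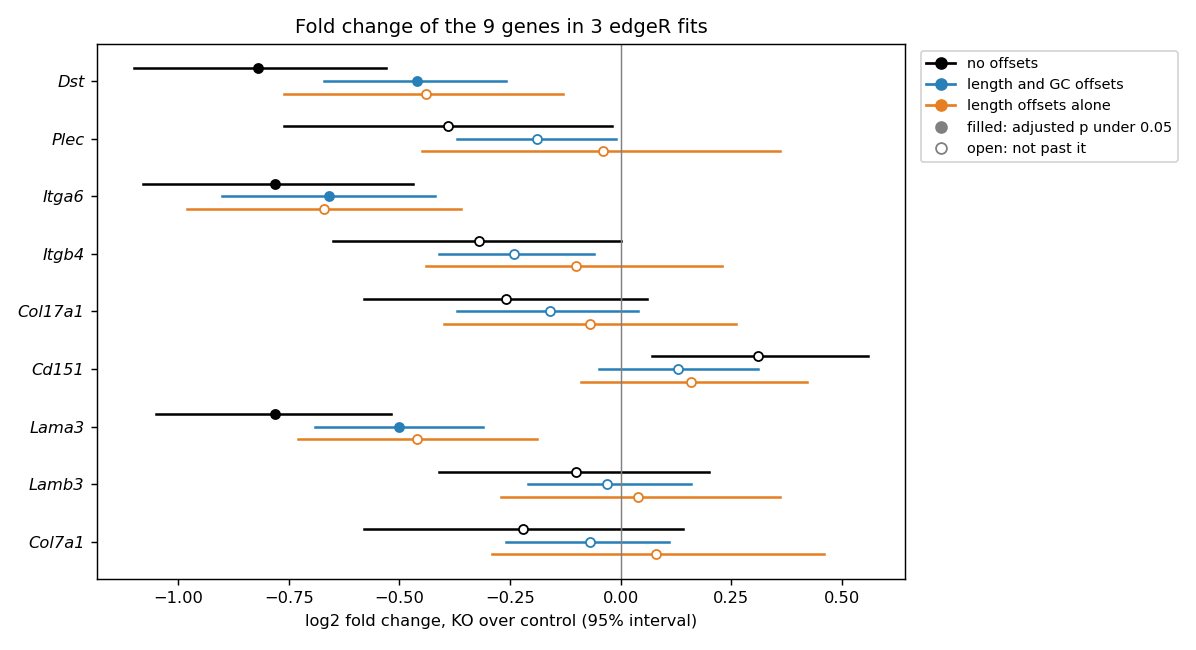
Log2 fold change (KO over control) with its 95% interval for the 9 genes in the edgeR fit without offsets (black), with length and GC offsets (blue) and with length offsets alone (orange); filled points passed an adjusted p of 0.05. Dst, Lama3 and Itga6 keep negative values and intervals below 0 in the 3 fits, and Plec has -0.39 without offsets and -0.04 with length offsets.

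The calls rested on the full set of libraries. With KO replicate 1 left out the log2 fold changes were -0.74 for Dst, -0.70 for Lama3 and -0.61 for Itga6, with edgeR adjusted p values of 0.343, 0.343 and 0.346, in a fit that takes the spread of the controls for the single KO library. None of the 3 passed without KO replicate 2 or without control replicate 1 either, although their values stayed between -0.97 and -0.76 there. In these 3 fits the share of all genes called lower was 0% (without KO replicate 1), 0.0386% (without KO replicate 2) and 0% (without control replicate 1). Without control replicate 2, 4 of the 9 fell (Plec with them) where 2.99% of all genes did, and without control replicate 3, 3 of the 9 fell where 8.25% did. The 3 genes also fell with DESeq2 size factors and upper quartile scaling (1.1% of all genes lower in each), library size alone (5.57%), no filter (1.64%), a filter on CPM (1.58%), robust estimation off (0.996%), the replicate block (4.59%) and DESeq2 (4.19%). With limma voom, run with quality weights for the libraries, 4 of the 9 fell, Plec with them, and Cd151 rose. In that fit 11.8% of all genes fell and 14.9% rose.

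Other genes of the basement membrane and its anchors mostly had negative values, and none passed. Of 28 listed genes 27 could be tested, 0 rose and 0 fell (edgeR), with a median log2 fold change of -0.30 and 12 genes at an unadjusted p under 0.05, a level that 21.9% of all genes reached. DESeq2 called 8 of the 27 lower and limma voom 14, and in those fits 4.19% and 11.8% of all genes were called lower. Leaving out control replicate 2 or control replicate 3 gave 4 and 11 lower calls by edgeR, where 2.99% and 8.25% of all genes were called lower. Col4a5, a collagen IV chain, had -0.60 (SE 0.15, edgeR adjusted p = 0.0535), and Lamc1, the laminin γ1 chain, -0.45 (SE 0.11, edgeR adjusted p = 0.0569). Nid2, which links laminin to collagen IV, had -0.53 (SE 0.15, edgeR adjusted p = 0.0726). Grip1, a scaffold needed for the Fraser complex at the basement membrane, had -0.83 (SE 0.23, edgeR adjusted p = 0.0704). With length and GC offsets the list median was -0.13 and Nid2 alone passed as lower.

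Of 9 genes of other plakins, basal keratins and their regulators, 2 fell, 0 rose and 7 did not pass, with a median of -0.26. Neither of the 2 passed without KO replicate 1, without KO replicate 2 or without control replicate 1, and both did without either of the other controls. Their log2 fold changes in the first 3 of these fits were -0.78, -0.63 and -0.76 for Klhl24 and -0.67, -0.70 and -0.72 for Eppk1 (edgeR adjusted p between 0.122 and 0.346). Klhl24, a ubiquitin ligase adaptor that targets keratin 14 in human skin, fell to 21.4 ± 1.65 CPM in KO skin (SD, n = 2), against 34.9 ± 2.63 CPM in control skin (SD, n = 3; log2 fold change -0.70, SE 0.13, edgeR adjusted p = 0.0234). Epiplakin, Eppk1, fell by 0.69 on the log2 scale (SE 0.14, edgeR adjusted p = 0.0291). It was the only one of the 9 to pass with length and GC offsets (-0.45, SE 0.09, edgeR adjusted p = 0.0204), where Klhl24 had -0.36 (SE 0.14, edgeR adjusted p = 0.176). With median transcript length offsets Klhl24 was instead the only one to pass (-0.80, edgeR adjusted p = 0.0318), and Eppk1 had -0.37 (edgeR adjusted p = 0.222). With offsets on length alone neither passed (Eppk1 -0.35, Klhl24 -0.41, edgeR adjusted p = 0.398 and 0.253). Macf1, the plakin closest in build to dystonin, had -0.39 (SE 0.12, edgeR adjusted p = 0.105) and desmoplakin, Dsp, -0.27 (SE 0.11, edgeR adjusted p = 0.198). The keratins that the hemidesmosome anchors had positive values, 0.15 for Krt5 (SE 0.13) and 0.17 for Krt14 (SE 0.13), and did not pass (edgeR adjusted p = 0.533 and 0.475).

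Among 18 genes of focal adhesions, the other integrin contacts of basal keratinocytes, 1 fell, 0 rose and 17 did not pass, with a median of -0.17. The gene that fell was Itga2, a collagen-binding integrin chain (-1.34, SE 0.27, edgeR adjusted p = 0.0288), and 0 of the list passed without KO replicate 1, KO replicate 2 or control replicate 1, or once offsets for length and GC content were used. The log2 fold change of Itga2 was -1.03, -1.73 and -1.31 in those 3 fits, in that order, and -1.05 with the offsets (edgeR adjusted p between 0.0516 and 0.346). Without control replicate 3, 5 genes of the list fell, where 8.25% of all genes did. Vinculin, Vcl, had -0.44 (SE 0.13, edgeR adjusted p = 0.0784), Kank1 -0.28 (SE 0.11, edgeR adjusted p = 0.167) and Itga9 -0.24 (SE 0.12, edgeR adjusted p = 0.261). Itga3, whose α3β1 integrin binds the same laminin as α6β4, had -0.11 (SE 0.15, edgeR adjusted p = 0.711). Of 14 tetraspanins related to Cd151, 0 passed (edgeR; 2 at an unadjusted p under 0.05), and the median was 0.00. DESeq2 called 0 of them, edgeR without control replicate 3 called Cd81 higher, as it did 10.6% of all genes, and limma voom called 2 higher, Cd63 and Cd81, where limma voom called 14.9% of all genes higher. Cd81 had 0.32 (SE 0.11), Cd63 0.29 (SE 0.12), Tspan4 0.18 (SE 0.13) and Cd37 0.17 (SE 0.14), with edgeR adjusted p values of 0.136, 0.19, 0.442 and 0.505.

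**Figure D5:**
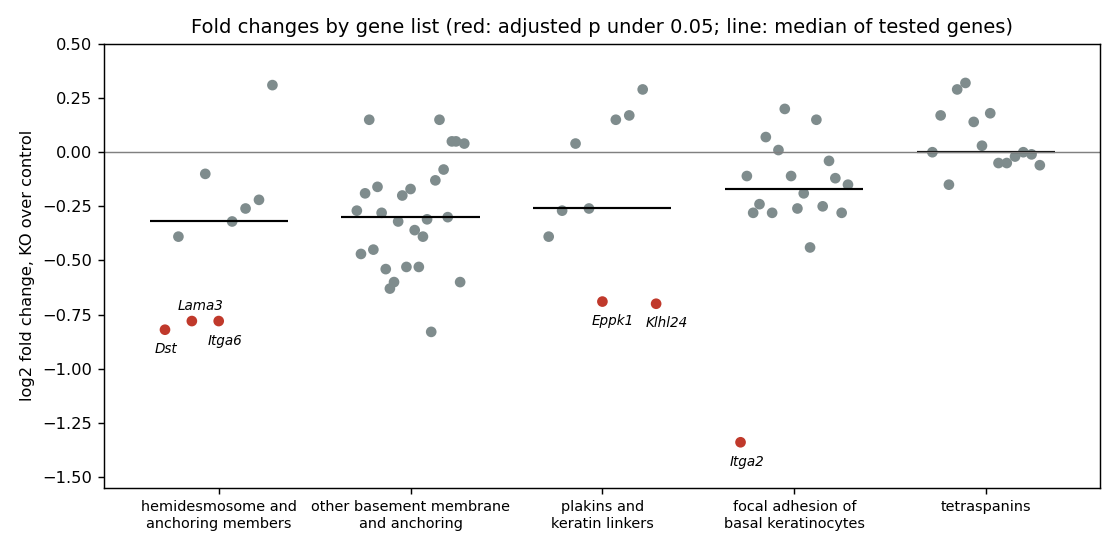
Log2 fold change (KO over control, y axis) of every tested gene of 5 lists, with the list medians as lines and genes past an adjusted p of 0.05 in red. Dst, Lama3, Itga6, Eppk1, Klhl24 and Itga2 are the genes past the threshold; most other basement membrane genes lie below 0 and the tetraspanins scatter around it.

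Markers of the cells that express these genes gave no uniform shift. The summed level of 6 basal keratinocyte genes was 17748 and 18056 CPM in KO skin, against 14785 to 16825 CPM in control skin, and 0 of the 6 passed (edgeR, DESeq2 or limma voom; 0 at an unadjusted p under 0.05 by edgeR). Trp63, the transcription factor of basal cells, had a log2 fold change of -0.24 (SE 0.14, edgeR adjusted p = 0.337). The sum of 6 suprabasal genes was 39959 and 36299 CPM in KO skin, against 24917 to 32151 CPM in control skin, and 0 of those 6 passed by edgeR (4 at an unadjusted p under 0.05), while DESeq2 called 3 of them higher (Ivl, Krtdap and Lor), where it called 6.31% of all genes higher. limma voom called the same 3 higher and Flg lower. Both KO basal sums lay above those of the controls, and Krt5 and Krt14 made up most of them, while Trp63 and Ccnd2 (-0.22, SE 0.14, edgeR adjusted p = 0.415) of the same list had negative values.

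Endothelial cells also make α6 integrin, Schwann cells make α6β4, and muscle and nerve make dystonin and plectin. The sum of 6 blood endothelial genes was 238 and 223 CPM in KO skin, against 246 to 268 CPM in control skin. For 6 Schwann cell genes it was 678 and 773 CPM in KO skin, against 654 to 812 CPM in control skin. For 6 skeletal muscle genes it was 4373 and 5144 CPM in KO skin, against 3653 to 3955 CPM in control skin, with 1 of the 6, Mylpf, past the threshold as higher (log2 fold change 0.60, SE 0.13, edgeR adjusted p = 0.0329). Without KO replicate 1, 0 of the 6 passed by edgeR (4 at an unadjusted p under 0.05), and with all libraries DESeq2 and limma voom each called 4 of them higher. Over all genes, those methods called 6.31% (DESeq2) and 14.9% (limma voom) higher. The endothelial sums were lower and the muscle sums higher in both KO libraries, and the Schwann cell sums overlapped. Of the 6 endothelial genes 4 had negative and 2 positive log2 fold changes, and 0 passed by edgeR. DESeq2 called 1 of these lower, and limma voom 2 lower and 1 higher, where they called 4.19% and 11.8% of all genes lower. Sums of fibroblast genes were 26838 and 26505 CPM in KO skin, against 25627 to 33093 CPM in control skin. Those of adipocyte genes were 1185 and 1029 CPM in KO skin, against 611 to 992 CPM in control skin, with Cfd, 1 of the 6, called higher (log2 fold change 0.71, SE 0.15, edgeR adjusted p = 0.0351). Of those 6, 0 passed by edgeR when KO replicate 1 was left out (1 at an unadjusted p under 0.05), and with all libraries DESeq2 called 2 and limma voom 4 higher. The shares of all genes called higher were again 6.31% and 14.9%. Sums of macrophage genes were 400 and 340 CPM in KO skin, against 305 to 342 CPM in control skin. DESeq2 called 1 macrophage gene higher and limma voom 2, and each called 1 fibroblast gene lower. Each list had 6 genes, none of them at 0 in all libraries, and the part of other cell types in the values of the 9 genes was not tested. These sums and calls were not corrected for transcript length. The longest transcript of Cfd has 922 bases, and 218 of the 1245 genes under 1000 bases were called higher (edgeR, median log2 fold change 0.41).

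The genes whose profiles over the 5 libraries lay nearest to the median profile of the 9 were Map4k2, Ppip5k1, Zfyve1, Nuak1 and Celsr2, among 10265 genes with a mean of at least 10 CPM. Their Euclidean distances, in log2 units over 5 libraries, were 0.0465, 0.0628, 0.0648, 0.065 and 0.0703. All 5 had small negative fold changes, between -0.40 for Celsr2 and -0.30 for Zfyve1, and were highest in control replicate 3. Both traits follow from choosing them by that profile. None of them passed the test (edgeR adjusted p between 0.143 and 0.268).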

How the data were processed

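Total RNA of ear skin was sequenced in 2 KO and 3 control libraries, grouped by their titles. The deposited table holds raw read counts per Entrez gene; the authors' tools included HISAT2 2.0.4 and DESeq2 1.16.1 on GRCm38 (mm10), per the submitters' processing notes. The counting program, its strand setting and how shared reads were treated are not named in those notes.

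Symbols came from RefSeq (25275 of 27179 identifiers), transcript lengths and GC content from GENCODE M21 (96% of tested genes). Counts were filtered with filterByExpr, scaled by TMM and tested with edgeR 4.0.16 (robust quasi-likelihood, R 4.3.3); the biological coefficient of variation was 0.154. Offsets were smooth trends per library fitted with mgcv 1.9.3. DESeq2 1.42.0 and limma 3.58.1 (voom with quality weights, called limma voom above and below) were alternatives. Other scalings and filters, a replicate block and leaving out each library were tried too. Counts within a group differed beyond sampling noise (chi-square per degree of freedom 24.4 to 82.3). Named genes are the 9 members, Cd1d1, up to 4 genes per list with the smallest p, and the 5 nearest profiles; Itgb1, Itga3, Krt5, Krt14, Trp63, Mylpf, Cfd, Ccnd2, Ivl, Krtdap, Lor and Flg were added later. Members and lists were chosen with earlier results of these data known. The count ratio used a pseudocount of 1 count. Intervals cover the spread between libraries, not how the reads were counted. The count ratios were adjusted over the 6 compared here, and results of some other genes are not reported here.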

Additional observations from a re-analysis of the deposited data

How the results depend on the processing

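The count of 3 called genes among the 9 was the same with DESeq2 size factors, upper quartile or library size scaling, both other filters, robust estimation off, DESeq2, length and GC offsets, the replicate block and without control replicate 3. It was 0 with length offsets and 5 with limma voom (Dst, Plec, Lama3 and Itga6 lower, Cd151 higher), and leaving out one replicate gave 0 to 4. Leaving out KO replicate 1, KO replicate 2 or control replicate 1 gave 0, and leaving out control replicate 2 gave 4, with Plec as the fourth. The median of the 9 was -0.07 with length offsets, against -0.32. Over all genes 657 passed. The count was 1242 with library size alone (974 lower and 268 higher, against 183 and 474, with a median over all genes of -0.16), 1036 without the filter, 20 with length offsets, 221 with median transcript length offsets, 1834 with DESeq2 and 4662 with limma voom. Leaving out one replicate gave 0 to 3277: 1 without KO replicate 1, 128 without KO replicate 2, 0 without control replicate 1 (edgeR, 2253 at an unadjusted p under 0.05), 1334 when control replicate 2 was left out and 3277 when control replicate 3 was. The cause was not tested.

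Replicate numbers did not pair the libraries. Same-numbered libraries had correlations of 0.016 and 0.0641 between their deviations from the group means, and with the replicate block, where control replicate 3 has no partner, 2037 genes passed and the 9 genes had a median of -0.19. Signs turned for some genes that had not passed. Lamb3 had 0.01 with the replicate block, 0.01 with control replicate 3 left out, and 0.04 with length offsets, and Col7a1 0.08 with length offsets. With length offsets Dsp had 0.04, Itga9 0.02 and Tspan4 -0.05, with length and GC offsets Dsp had 0.00 and Tspan4 -0.13, and Dsp had 0.00 with median transcript lengths. The log2 ratio of Col7a1 to Lamb3 had a difference of 0.10 without KO replicate 1. With library size alone the median of the 14 tetraspanins was -0.14, and it ranged from -0.05 to 0.11 in the other settings.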
